A study of Caenorhabditis elegans with 2 samples.

Results

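The 4 genes described here encode UDP-glucuronosyltransferases of Caenorhabditis elegans. They are ugt-58 and ugt-64, together with ugt-8 and ugt-49. They were chosen by the deposited signal value, as the family members whose promoters held the highest regions bound by the nuclear hormone receptor NHR-28. They are 4 of 67 ugt genes and of 19973 protein-coding genes in the Ensembl WBcel235 annotation. Since the signal value selected them, their signal and rank are given as a description with no test.

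The study mapped eGFP-tagged NHR-28 by chromatin immunoprecipitation followed by sequencing (ChIP-seq) in L4 larvae, the last larval stage. Per the labels, the strain was OP317, with the genotype unc-119(ed3) III; wgIs317, whole animals were used, and males and females were pooled. The 2 samples form 1 group and are labelled biological replicates 1 and 2. Each carries the same tagged transgene in the same unc-119 mutant background, no untagged or receptor-deficient sample was analysed here, and the tissue in which a region was bound cannot be read from whole animals.

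UDP-glucuronosyltransferases transfer a sugar from a UDP-sugar donor onto small lipophilic molecules, which makes the product more soluble and easier to excrete. This conjugation belongs to the second phase of detoxification, after oxidation by cytochromes P450, and it also acts on internal compounds such as hormones and bile pigments in mammals. In nematodes the gene family is large and glucose conjugates of foreign compounds are well known. The nuclear hormone receptor family is likewise expanded in nematodes, and several of its members control detoxification or fat metabolism genes.

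The sequence under the summit of the highest region of each gene is shown first, because the results return to the short words that these sequences do or do not share. The summit is the base of greatest enrichment that the authors' list gives for a region. All coordinates are 1-based on ce11, which is the WBcel235 assembly, and the bases were read from the RefSeq copy of that assembly in the 5′ to 3′ direction of the gene. The stretches are chrII:9586899-9587139 on the minus strand for ugt-58, chrV:3505804-3506044 on the minus strand for ugt-64, chrV:4903776-4903929 on the plus strand for ugt-8 and chrV:10371333-10371573 on the plus strand for ugt-49. The ugt-8 stretch ends at the base before the annotated gene start. Capitals mark each match to TGATAA, the binding site type of GATA factors, and to the words ACTACAA and AGACGCAG, and a match on the opposite strand is in capitals as the reverse complement of its word.
ugt-58: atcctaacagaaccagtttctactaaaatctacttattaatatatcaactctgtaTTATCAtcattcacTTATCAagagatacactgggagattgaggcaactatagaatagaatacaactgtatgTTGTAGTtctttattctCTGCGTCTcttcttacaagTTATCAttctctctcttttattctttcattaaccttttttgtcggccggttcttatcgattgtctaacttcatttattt
ugt-64: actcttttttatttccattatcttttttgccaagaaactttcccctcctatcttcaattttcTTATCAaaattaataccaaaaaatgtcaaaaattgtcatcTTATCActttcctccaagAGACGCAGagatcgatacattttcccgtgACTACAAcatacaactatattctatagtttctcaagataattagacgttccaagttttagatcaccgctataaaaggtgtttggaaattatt
ugt-8: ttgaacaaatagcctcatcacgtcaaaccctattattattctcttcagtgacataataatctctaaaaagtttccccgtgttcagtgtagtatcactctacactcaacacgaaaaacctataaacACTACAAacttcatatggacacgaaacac
ugt-49: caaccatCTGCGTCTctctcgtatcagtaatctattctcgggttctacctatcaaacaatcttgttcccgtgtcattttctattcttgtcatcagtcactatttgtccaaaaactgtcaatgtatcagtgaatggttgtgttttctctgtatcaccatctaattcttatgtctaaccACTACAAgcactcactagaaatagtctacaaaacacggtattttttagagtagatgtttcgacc

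All 4 genes held at least 1 region of the optimal list, the set the authors kept after comparing the replicates, between 3 kb upstream of the gene start and the gene end. Together the 4 windows held 7 of the 8745 optimal regions. Of all protein-coding genes, 38.1% had an optimal summit in such a window. In the narrower promoter window, which reached 1000 bp before and 200 bp past any annotated start, 24.8% had one. The members were chosen for having such a region, so nothing is read from their count.

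The gene ugt-58 (WBGene00009450) lies on chromosome II from 9584384 to 9586784 on the minus strand, has 1 annotated transcript of 8 exons, and encodes 533 amino acids. Its highest region spanned 9586786 to 9587225 and lay in intergenic sequence, with the summit at -235 bp relative to the gene start. The signal value was 559 in replicate 1, 437 in replicate 2 and 993 in the list from the pooled alignments. Both replicates placed it at the very top: it ranked 2 of 30000 regions in replicate 1 and 1 of 30000 in replicate 2. In the optimal list it ranked 1, above every other region of the genome. The upstream gap is 1399 bp, up to eral-1, and the summits in the replicates lay 3 bp apart.

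The gene ugt-64 (WBGene00015577) lies on chromosome V from 3503080 to 3506352 on the minus strand. It has 4 annotated transcripts, each with its own start, and the transcript of longest coding sequence has 8 exons and encodes 501 amino acids. Its highest region spanned 3505726 to 3506103, with a signal of 493 in replicate 1, 348 in replicate 2 and 840 in the pooled list. The ranks were 4 in replicate 1, 3 in replicate 2 and 3 in the optimal list. Unlike the other members, ugt-64 had this summit inside the annotated gene. It lay at 428 bp from the most upstream start, in an intron. From the nearest start, which is that of a shorter transcript, it lay at -228 bp.

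The gene ugt-8 (WBGene00019234) lies on chromosome V from 4903930 to 4905942 on the plus strand, with 1 transcript of 6 exons that encodes 531 amino acids. Its highest region spanned 4903713 to 4904109 and covered the gene start, with the summit at -34 bp. Signal was 418 in replicate 1, 260 in replicate 2 and 681 in the pooled list. The ranks were 9 in replicate 1, 16 in replicate 2 and 11 in the optimal list. The upstream gap, to ugt-67, is 657 bp, the shortest of the 4, and both replicates placed the summit on the same base, a distance of 0 bp.

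The gene ugt-49 (WBGene00007070) lies on chromosome V from 10372321 to 10374261 on the plus strand, with 1 transcript of 6 exons that encodes 525 amino acids. Its highest region spanned 10371238 to 10371657, with the summit at -868 bp, the farthest upstream of the 4 in a gap of 2398 bp to sri-20. Signal was 400 in replicate 1, 179 in replicate 2 and 576 in the pooled list. The ranks were 12 in replicate 1, 57 in replicate 2 and 22 in the optimal list. It was thus the member whose place in the list depended most on the replicate, and its replicate summits were 29 bp apart.

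**Figure D1:**
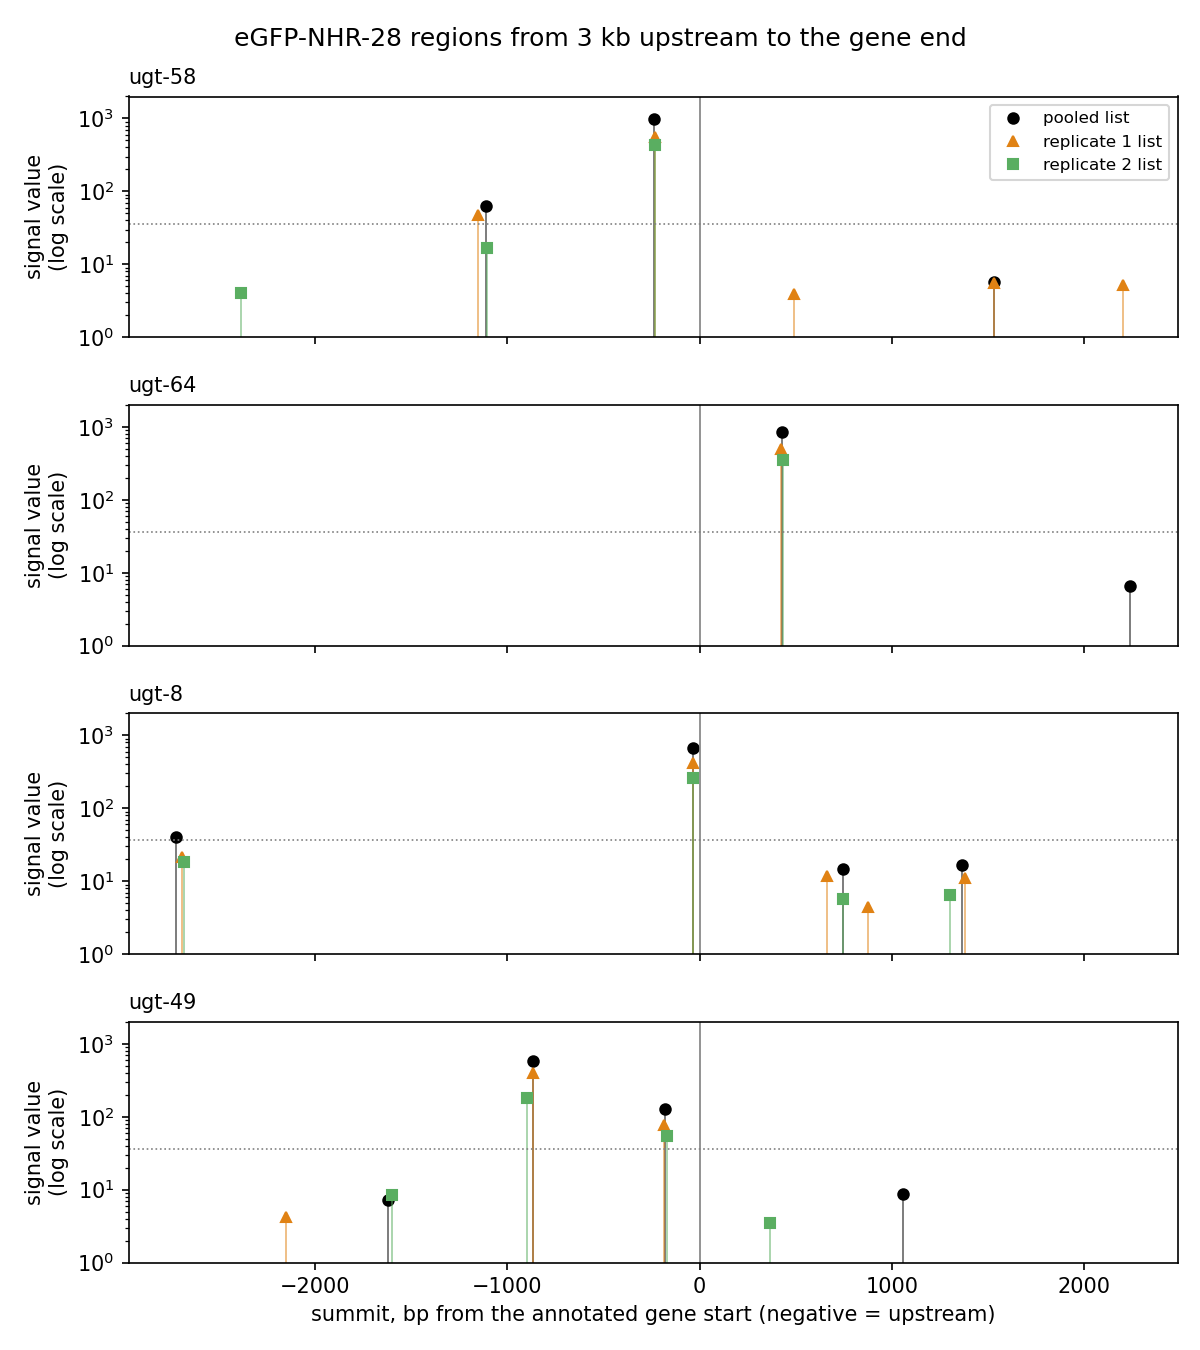
Summits of all regions from 3 kb upstream to the gene end for each gene, placed by distance from the annotated gene start in bp, with the authors' signal value on a log axis. Circles are the pooled list, triangles replicate 1, squares replicate 2, and the dotted line is the lowest signal of the optimal list, 36.2. Each gene has 1 tall region in all 3 lists near or upstream of the start, and the regions inside the ugt-8 and ugt-49 genes stay below the dotted line.

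The replicates differed in scale over the whole list, so the members were set against all optimal regions. Of the 8745, 8557 had a region over the summit in both replicate lists. Their median signal was 46.0 in replicate 1 and 28.7 in replicate 2, and the median ratio of replicate 2 over replicate 1 was 0.620, with 5% to 95% of regions between 0.276 and 1.25. The ratio was 0.781 for ugt-58, 0.706 for ugt-64, 0.623 for ugt-8 and 0.447 for ugt-49. These values stood at percentiles 71.9, 62.4, 50.5 and 22.3 of all matched regions, so each member lay within the middle spread of the list. The pooled signal was close to the sum of both replicates, at 0.997 of the sum for ugt-58, 0.998 for ugt-64, 1.00 for ugt-8 and 0.996 for ugt-49, with a median of 0.996 over the matched regions. It is therefore no measurement apart from the replicates. The median distance between replicate summits was 26 bp over all matched regions. The distances were 3 bp for ugt-58, 6 bp for ugt-64 and 0 bp for ugt-8, shorter than that median, against 29 bp for ugt-49, slightly longer.

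**Figure D2:**
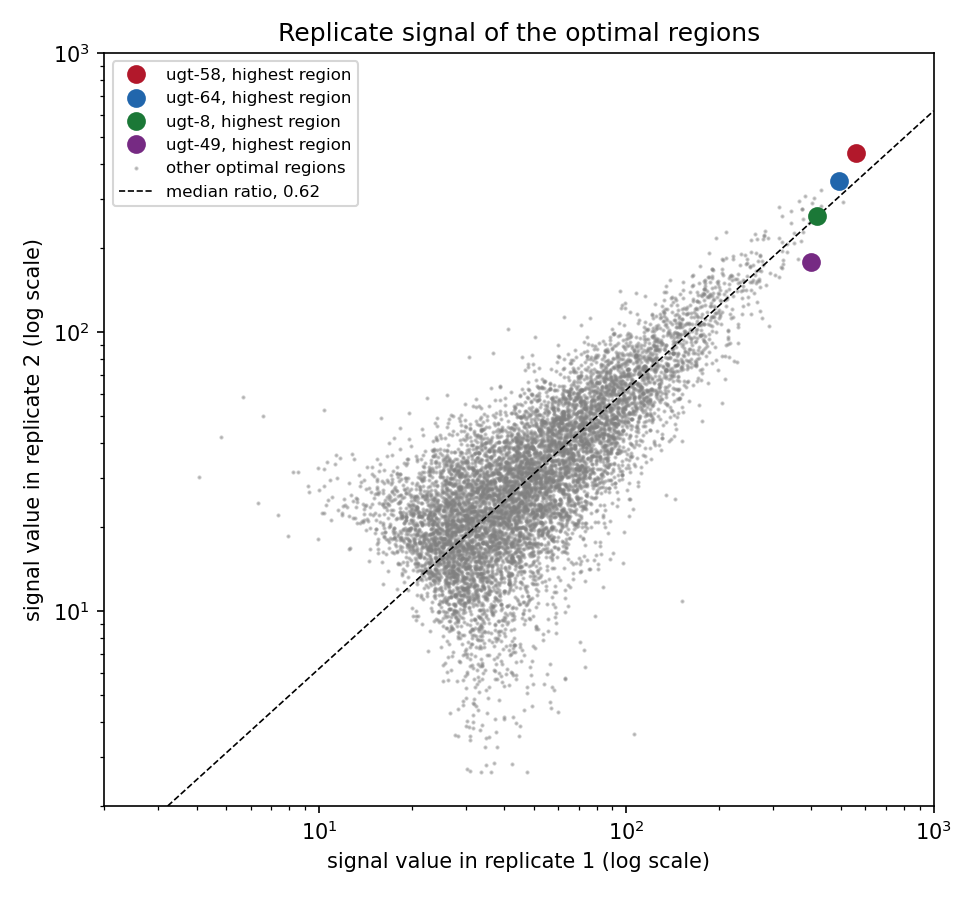
Signal in replicate 1 (x axis) and replicate 2 (y axis) for the 8557 optimal regions matched in both, on log axes, with the highest region of each of the 4 genes enlarged and the median ratio of 0.620 as a dashed line. The points of ugt-58 and ugt-64 lie above the line, that of ugt-8 on it, and that of ugt-49, at 400 and 179, below it.

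Beside its highest region, each of 3 members had a lesser optimal region in its window, while ugt-64 had none. For ugt-58 the lesser region lay at -1108 bp (chromosome II, 9587717 to 9588066), with a signal of 48.2 in replicate 1, 16.9 in replicate 2 and 62.8 in the pooled list. The ratio of 0.352 stood at percentile 10.7, inside the 5% to 95% range of the matched regions, and the replicate summits lay 47 bp apart. For ugt-49 it lay at -177 bp (chromosome V, 10372055 to 10372213), nearer to the gene start than the main region, with a signal of 76.6 in replicate 1, 53.7 in replicate 2 and 129 in the pooled list. In the ugt-8 window it lay at -2721 bp (chromosome V, 4901034 to 4901383), with 21.4 in replicate 1, 18.5 in replicate 2 and 39.8 in the pooled list. That summit is in the promoter of the neighbouring ugt-67, at -165 bp from its start, and close to the lowest signal of the optimal list. The highest region exceeded the next one 15.8-fold in the ugt-58 window, 17.1-fold in the ugt-8 window and 4.48-fold in the ugt-49 window, on the pooled signal.

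The 101 bases centred on each lesser summit are shown because they hold some of the words of the main regions. They are chrII:9587842-9587942 on the minus strand for ugt-58, chrV:4901159-4901259 on the plus strand for the ugt-8 window and chrV:10372094-10372194 on the plus strand for ugt-49, with capitals as above. A match to TGATAA stood in all 3, and ACTACAA stood in the stretch between ugt-67 and ugt-10.
ugt-58 lesser region: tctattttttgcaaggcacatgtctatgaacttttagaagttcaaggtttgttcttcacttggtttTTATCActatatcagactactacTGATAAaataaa
ugt-8 window, at ugt-67: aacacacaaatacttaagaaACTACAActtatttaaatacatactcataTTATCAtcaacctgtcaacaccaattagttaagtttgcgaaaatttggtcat
ugt-49 lesser region: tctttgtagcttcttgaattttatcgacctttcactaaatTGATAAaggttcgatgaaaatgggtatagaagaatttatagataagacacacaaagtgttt

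The replicate and pooled lists were deposited with weak regions kept for the comparison of replicates, and they held further summits in the 4 windows. The replicate 1 list had 14 summits there, the replicate 2 list 12 and the pooled list 13. In each of these lists 7 stood at the highest -log10 q value of the list, the same number as in the optimal list. The other summits had a signal of at most 16.9 in the pooled list, 11.8 in replicate 1 and 8.44 in replicate 2. Of the members, ugt-8 held a pair of them inside the gene in every list: the pooled list had one at 746 bp (14.6) in an intron and one at 1365 bp (16.9) in a coding exon. Replicate 1 had summits near them at 664 bp (11.8) and 1381 bp (11.0), and another at 874 bp (4.36). Replicate 2 had them at 744 bp (5.62) and 1301 bp (6.39). The start nearest to the summits at 1365, 1381 and 1301 bp was that of the neighbouring ugt-14. Inside ugt-58, the pooled list and replicate 1 had a weak summit at 1530 bp in a coding exon (5.64 pooled and 5.47 in replicate 1), and replicate 2 had none there. For ugt-49, a weak summit at -1618 bp in the pooled list (7.24) had a partner at -1601 bp in replicate 2 (8.44). None of these reached the optimal list.

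Among the 67 ugt genes the members led by a gap in the optimal list, whose signal had selected them. The gap was not examined in the single replicates, where ugt-49 ranked 12 in replicate 1 and 57 in replicate 2. The lowest member in the optimal list, ugt-49, had a signal of 576, and the next gene outside the choice, ugt-63, had 429 (rank 57). The genes ugt-9 and ugt-11, which point away from each other, shared 1 summit with a signal of 427 (rank 60). They were followed by ugt-34 at 421 (rank 68) and ugt-20 at 337 (rank 140). Promoter signal in the members ran from 576 to 993 with a median of 761, against 39.8 to 429 with a median of 124 in the 48 of 63 other ugt genes that had an optimal promoter region (76.2%). Over all protein-coding genes with such a region the median was 78.7. Of all 19973 genes, 16 had a promoter signal at or above that of ugt-49, the members included.

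**Figure D3:**
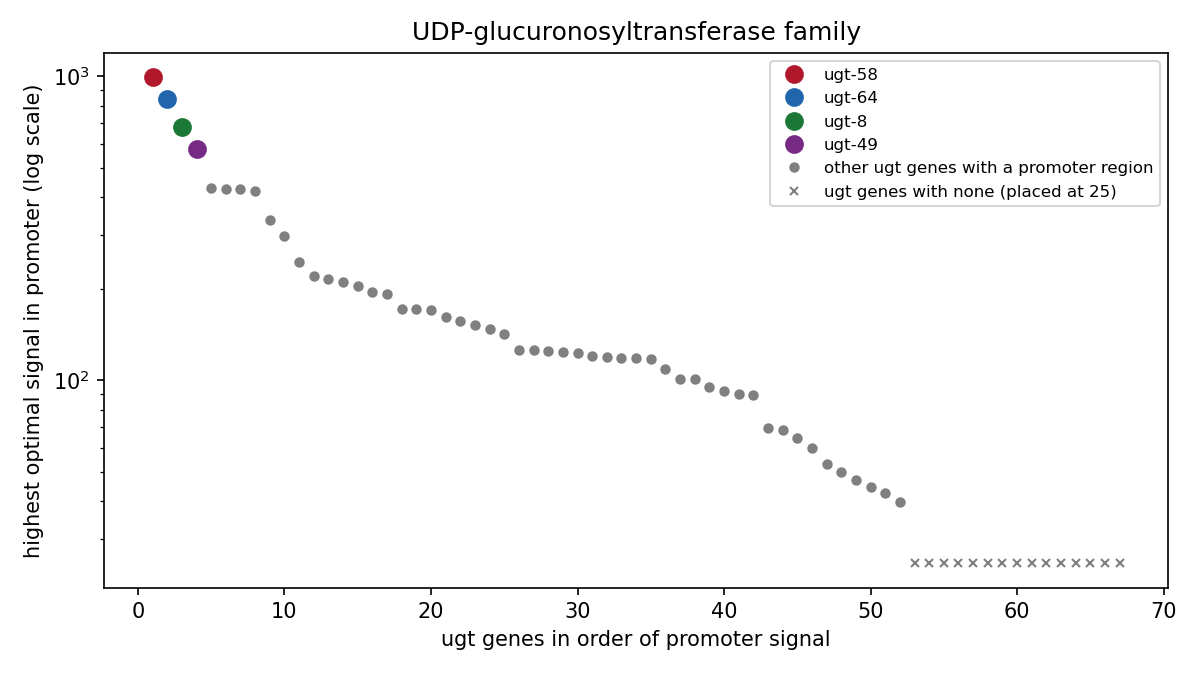
Highest optimal signal in the promoter of each of the 67 ugt genes (log axis), in descending order, with the 4 members enlarged. The members stand at 576 to 993, the 48 other ugt genes with a promoter region at 39.8 to 429, and crosses mark the 15 genes without one, drawn at an arbitrary height.

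The members lay on chromosomes II and V, in different settings. Chromosome II has ugt-58 as its only ugt gene, and no other ugt gene lies within 10 kb of ugt-58, ugt-64 or ugt-49. The 3 members on chromosome V are among its 42 ugt genes, 33 of which had a promoter region. Only ugt-8 sits in a cluster, with 6 other ugt genes within 10 kb. Signal within that cluster was uneven: ugt-9 and ugt-11 had the shared region at 427, ugt-13 had 220 (rank 503), ugt-14 had 170 (rank 973), ugt-67 had 39.8 (rank 8101), and ugt-10 had no optimal promoter region. The promoter of no other gene held the highest summit of any member. The other gene starts within 3 kb of these 4 summits were those of eral-1 for ugt-58, the chemoreceptor-family gene str-225 for ugt-64, ugt-14 and ugt-67 for ugt-8, and the chemoreceptor-family gene sri-20 for ugt-49.

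The coding sequences of the members were set beside those of the family at large. Global nucleotide alignment gave 48.4% identity for ugt-58 and ugt-64, 49.9% for ugt-58 and ugt-8, 49.6% for ugt-58 and ugt-49, 48.5% for ugt-64 and ugt-8, 49.1% for ugt-64 and ugt-49, and 52.4% for ugt-8 and ugt-49. The median over all 2211 pairs of ugt genes was 52.0%, above every member pair except ugt-8 and ugt-49. The highest identity for ugt-64 was with ugt-63 at 65.0%, and that for ugt-8 with its neighbour ugt-9 at 74.3%. For ugt-49 it was with ugt-28 at 54.9%. For ugt-58 it was with ugt-54 at 51.6%, which is below the median of all pairs. Promoter signal was 429 for ugt-63, 427 for ugt-9, 124 for ugt-28 and 101 for ugt-54. Each of the 7 optimal regions consisted entirely of 36-base words that occur once in the genome, as did 94.1% of all optimal regions.

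The signal in the 3 lists was also set beside that of the 4866 genes that had a promoter region in all of them. The measure was the Euclidean distance between log2 signals in the pooled list and both replicates. It rests on the signal level, which selected the members, so the nearest genes are those of similar signal. For ugt-58 the nearest was nipi-3, a Tribbles-family kinase gene, at a distance of 0.06, with a signal of 565 in replicate 1, 420 in replicate 2 and 982 in the pooled list. The next was ugt-64, at 0.44. For ugt-64 the nearest were F59B1.8 at 0.28 and nipi-3 at 0.40. For ugt-8 they were the nuclear hormone receptor genes nhr-178 at 0.14 and nhr-202 at 0.15. For ugt-49 they were Y73C8B.3 and Y73C8B.9, which share 1 region, at 0.18. That region had 361 in replicate 1, 182 in replicate 2 and 541 in the pooled list.

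A list of genes of UDP-sugar metabolism and transport was also looked at. Of its 5 genes, 3 had an optimal promoter region, beside 24.8% of all genes. The region of K08E3.5, named rml-1 in the annotation, had a signal of 302 (rank 209). That of gale-1, the epimerase between UDP-glucose and UDP-galactose, had 150 (rank 1314), and that of D1005.2 had 62.5 (rank 5235). No optimal promoter region was found for sqv-4, the dehydrogenase that makes UDP-glucuronic acid, or for sqv-7, a UDP-sugar transporter of the Golgi. The median of the 52 ugt genes with a promoter region was 126.

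A list of 16 short words was looked for on either strand in the 50 bp to each side of a highest summit. The GATA-type word TGATAA matched near the summits of ugt-58, at 42 to 47 bp downstream, and of ugt-64, at -18 to -13 bp. It was present in 33.3% of all optimal windows of that width and in 12.6% of windows of equal length directly upstream of protein-coding genes. Over the whole highest regions, ugt-58 held 4 matches and ugt-64 held 2, while those of ugt-8 and ugt-49 held none, with 52.8% of all optimal regions holding at least 1. The word TATAAA, the core promoter element bound by the TATA-binding protein, matched at the ugt-8 summit, from -2 to 3 bp. It was present in 7.49% of optimal windows and in 19.4% of upstream windows. The other 14 words had no match within 50 bp of any of the 4 summits.

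The nuclear receptor half-site AGGTCA occurred once in the wider regions, 120 bp downstream of the ugt-64 summit, and AGTTCA once, at -143 bp in ugt-49. Optimal regions held them in 10.9% and 18.5% of cases. The word AAGTCCA and the longer CAAAGTCCA, which is bound by the mammalian receptor HNF4, were in no highest region of the members and in 1.97% and 0.309% of all optimal regions. GAGAGAGA occurred in the regions of ugt-58 and ugt-49 and in 10.8% of all optimal regions. TTTCAG (30.7% of all optimal regions) and TAATTA (9.26%) occurred in that of ugt-64, and TATAAA (27.0%) in those of ugt-58, ugt-64 and ugt-8. GTAAACA (6.53%), CACGTG (9.87%), CCGCCC (8.86%), CAGCTG (6.91%), TGACTCA with its reverse complement TGAGTCA (4.40%) and TGACGTCA (1.72%) occurred in none. A missing match says only that these letters are absent from the window.

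A pair of further words was picked from the member sequences themselves, after they had been read, so their presence in members is a consequence of the choice, and only their shares in other regions are compared. The windows of 101 bp around the summits of ugt-58 and ugt-64 shared the 14-base word aagagacgcagaga, found in 25 of the 8745 optimal windows and at 144 places in the genome. They also shared the 13-base word actacaacataca, found in 7 optimal windows and at 11 places in the genome. Read along the strand that carries them, the 14-base word came before the 13-base word in both genes, 7 bases apart in ugt-58 and 18 bases apart in ugt-64. That strand was opposite to the gene in ugt-58 and the gene strand in ugt-64, so in the direction of the gene their order was reversed between the genes. No other pair of members shared a word longer than 9 bases in these windows. The core of the latter word, ACTACAA, lay at 6 to 12 bp from the summit in ugt-58, 29 to 35 bp in ugt-64, 5 to 11 bp in ugt-8 and 57 to 63 bp in ugt-49. All 4 highest regions therefore held it, each on the downstream side of the summit, and in ugt-49 beyond 50 bp. Of all optimal regions, 9.19% held it over their whole length. Its side of the summit was not compared with other regions. The core of the former, AGACGCAG, lay at 23 to 30 bp in ugt-58, at 0 to 7 bp in ugt-64 and at -113 to -106 bp in ugt-49, and was not in the ugt-8 region. Of all optimal regions, 10.6% held it over their whole length. It overlaps neither TGATAA nor ACTACAA in these regions, but in ugt-49 it shares bases with the match to GAGAGAGA.

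**Figure D4:**
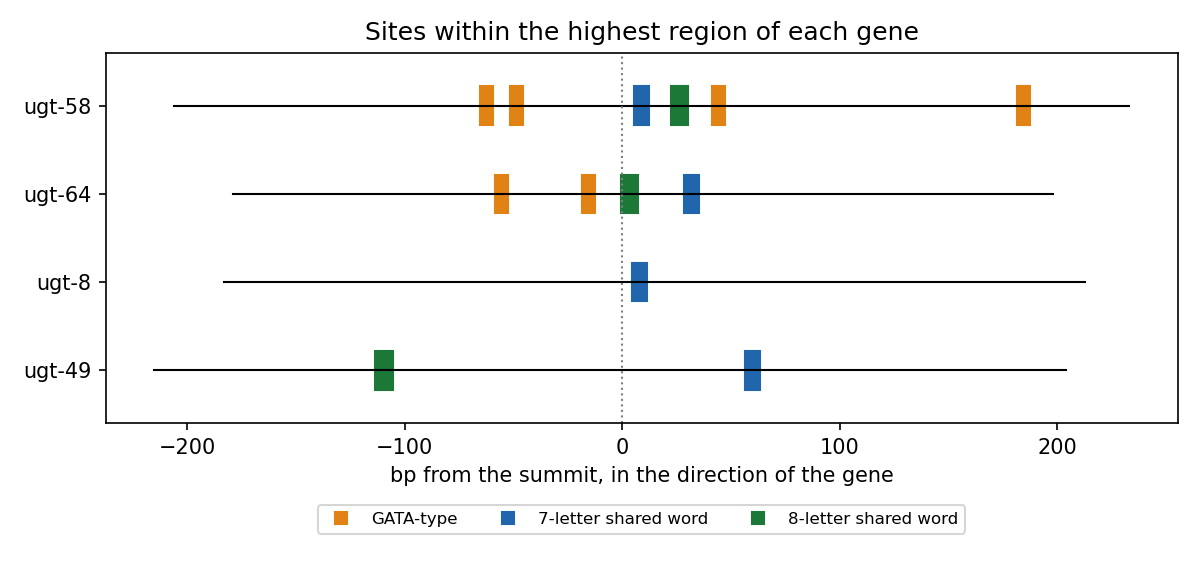
Matches to the GATA-type word, the 7-letter word and the 8-letter word along the highest region of each of the 4 genes, as distance from the summit in bp in the direction of the gene. Horizontal lines are the regions. The 7-letter word, which was picked from these regions, lies downstream of the summit in all 4. The GATA-type word appears in ugt-58 (4 matches) and ugt-64 (2 matches).

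Over all optimal regions, ACTACAA was in 4.46% of windows and in 1.49% of upstream windows of equal length, and AGACGCAG in 6.78% and 1.26%. The share with ACTACAA was higher among regions of higher rank. It was 48.0% among ranks 1 to 25, 21.3% among ranks 26 to 100, 15.5% among ranks 101 to 300, 7.14% among ranks 301 to 1000, 4.80% among ranks 1001 to 3000 and 3.22% among ranks 3001 to 8745. With the 4 member regions left out, 9 of the 21 others among the first 25 held it (42.9%). For AGACGCAG the first group had 16.0%, or 2 of 21 (9.52%) without the members. The later groups had 13.3%, 9.5%, 9.43%, 7.75% and 5.90%. Without the members, the first group was thus below ranks 26 to 100. TGATAA had 24.0%, 29.3%, 30.5%, 33.3%, 38.1% and 31.8% in the same 6 groups from high to low rank. Its share thus rose, rather than fell, up to ranks 1001 to 3000. Of the 47 optimal regions that gave the other ugt genes their promoter signal, 12 held ACTACAA (25.5%), 3 held AGACGCAG (6.38%) and 24 held TGATAA (51.1%) within 50 bp of the summit.

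**Figure D5:**
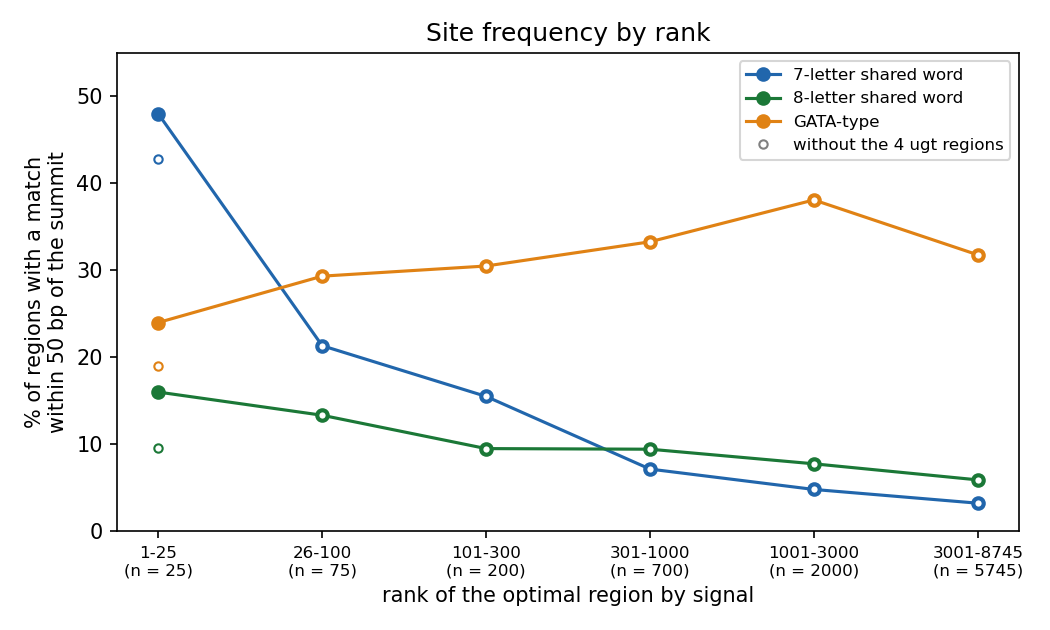
Percentage of optimal regions with a match within 50 bp of the summit for the 3 words, by rank of the region on signal, with the number of regions per group under the axis. Filled points are all regions and small open circles leave out the 4 member regions, which changes only the first group. The 7-letter word falls from 48.0% in the first group to 3.22% in the last.

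Region width moved with rank as well. The highest member regions were 440 bp wide for ugt-58, 378 bp for ugt-64, 397 bp for ugt-8 and 420 bp for ugt-49, against a median of 350 bp. Of the 25 regions of highest rank 88.0% were wider than that median, and of all optimal regions 2.02% were. The 101 bases around the summit had a GC content of 34.7% in ugt-58, 33.7% in ugt-64, 39.6% in ugt-8 and 32.7% in ugt-49. The median over all optimal regions was 40.6%, with 5% to 95% of regions between 29.7% and 54.5%, a range that held each member. The part of width and base composition in the word counts was not tested.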

How the data were processed

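Per the labels, ChIP-seq of eGFP-NHR-28 was done on 2 biological replicates. Per the deposited file descriptions, the authors called regions for single replicates and for both pooled, with a control alignment, kept background regions, and derived the optimal list from these by the irreproducible discovery rate. Peak caller, version and threshold: not given in the sources used here. The signal value in the deposited lists comes from the authors on a scale that no source here states, so it serves to describe and rank regions within a list. The deposited −log10 q value was used to mark the weak regions: it had a ceiling of 4.32 in the pooled list, 4.34 in replicate 1 and 4.22 in replicate 2. The optimal list ran from 36.2 to 993 in signal. Read depth is unknown, since the lists hold no counts.

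Regions were assigned by summit to genes of Ensembl release 115 with Python 3.11.15, pandas 2.3.3 and numpy 2.4.6, and coding sequences were aligned with Biopython 1.88 (match 2, mismatch -1, gap opening -5, gap extension -1). A region in a replicate list was matched to an optimal summit as the region of highest signal covering it. Assignment and word search were checked on simulated data. The matching of replicate regions was not checked in that way. Named genes were the 4 members, the 5 next ugt genes, ugt genes within 10 kb, the 2 genes most alike in signal, neighbouring starts and the UDP-sugar list. The members and lists were chosen with earlier results of these data known. No p-value was computed, because the members were selected on the measured values and the design has 1 group.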

Additional observations from a re-analysis of the deposited data

How the results depend on the processing

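The number of regions in the 4 windows was 7 in the optimal list and 13 in the pooled list. With only one replicate list it ran from 12 to 14, and was 7 in either once weak regions below the maximal q value were dropped, an alternative chosen after seeing the data. It was 5 in the promoter window, 5 in the upper 50% of the list by signal, 7 with any overlap and 7 in the ce10 list. The rank of ugt-58 was 1 to 2 over the single-replicate lists, that of ugt-64 3 to 4, that of ugt-8 9 to 16 and that of ugt-49 12 to 57. Matching to the nearest summit within 200 bp gave the same ranks (1 and 2 for ugt-58, 3 and 4 for ugt-64, 9 and 16 for ugt-8, 12 and 57 for ugt-49), and the pooled and ce10 lists kept the main ranks. The cause of the shift for ugt-49 was not tested. Between 42 and 56 of the 67 ugt genes had a region over the windows and thresholds tried, against 52 in the main setting. With each listed word counted once per gene, there were 3 pairs of gene and word within 50 bp. There were 2 within 25 bp and 5 within 100 bp, as a wider window holds more sequence. ACTACAA was in 3 members within 50 bp, 2 within 25 bp and 4 within 100 bp. AGACGCAG was in 2 and TGATAA in 2 members within 50 bp, and each in 1 within 25 bp. Using the summit of either replicate left these numbers of members as they were.

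No paired analysis was possible because the samples form 1 group and no result comes from a test. The planned protein alignment was not run and coding sequences were aligned instead, and bases directly upstream of gene starts stood in for promoter tables. With 2 samples and no read counts, the precision of a signal value is known only from the pair of replicate values, and the scale of each list limits any comparison between them.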

Other observations

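The 13-base word shared by ugt-58 and ugt-64 was within 50 bp of the summit in 7 optimal regions, and the starts nearest to the other 5 were those of nhr-203 (rank 111, signal 365), Y71F9B.1 (rank 162, signal 324), ugt-54 (rank 2736, signal 101), W06A7.4 (rank 6061, signal 54.8) and nhr-122 (rank 6339, signal 52.6). Both nhr genes encode nuclear hormone receptors. Over whole regions, ugt-49 shared the 11-base word agagacgcaga with both ugt-58 and ugt-64, and 275 optimal windows held that word. The regions of ugt-64 and ugt-8 shared the 13-base word aactttcttaatt, which was in 0 optimal windows of 101 bp and at 18 places in the genome. These words were picked from the sequences after reading them.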
